A study of Danio rerio with 8 samples.

Results

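The desaturase fads2 and the elongases of the elovl family other than elovl6 were followed in the livers of zebrafish fed the Whole Egg or the Control diet. The genes are listed by name, and the list was drawn up with earlier results of these data known, among them elovl5 as a gene that the study had picked. Of the 10 symbols looked for (fads2, elovl2, elovl5, elovl4a, elovl4b, elovl1a, elovl1b, elovl7a, elovl7b and elovl8b), 9 genes were found among the 32520 Ensembl genes counted in each fish. The gene-name table gives both elovl1 genes 1 shared symbol and both elovl4 genes another, so these 4 genes are called by their identifiers. The table held 1 elovl7 gene (ENSDARG00000069279), called elovl7 here, and does not say whether it is elovl7a or elovl7b. The gene called fads2 (ENSDARG00000019532) carries the name FADS3 in that table. It was taken as fads2 because RefSeq lists fads2 and fads6 as the fads genes of zebrafish and fads6 had its own identifier. The other identifiers were ENSDARG00000045414 for elovl2, ENSDARG00000004979 for elovl5 and ENSDARG00000057365 for elovl8b.

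Fatty acids that animals cannot make from acetyl units, linoleic and alpha-linolenic acid, are turned in the endoplasmic reticulum of liver cells into arachidonic acid, eicosapentaenoic acid and docosahexaenoic acid (DHA). A desaturase adds a double bond, an elongase of the elovl family starts the addition of a pair of carbons, and both kinds of enzyme act in turn. The liver is a main site of this synthesis and exports the products in lipoproteins, and the genes are known in vertebrates to be held down by dietary polyunsaturated fatty acids (PUFA).

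Each library was made from the whole liver of 1 female aged 36 weeks, with 4 females on the Whole Egg diet and 4 on the Control diet. All had been raised on the same live feeds and received the formulated diets from day 21. In the Whole Egg diet, dried whole egg took the place of part of the total protein, and the Control diet held protein from several sources, among them fish protein hydrolysate and casein. By the study's diet formulas the Whole Egg diet also held more lipid and more energy than the Control diet, so egg protein, egg fat and the amount of fat cannot be told apart here. The labels name neither a strain nor a tank, so fish are taken as separate animals and whether any shared a tank is unknown. The study compared liver gene expression between these diets in all 8 fish, in 6 fish without Whole Egg-2 and Control-2, which lay apart in a principal component analysis (PCA), and in 6 fish without Whole Egg-1 and Control-4, which overlapped there. The fish of the last 2 sets were thus chosen with their expression known.

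The reads counted on genes ranged per fish between 16916307 and 35871236, with a median of 21073643.5. Levels are given as CPM, counts scaled to a common library size and normalized between fish with edgeR's trimmed mean of M values (TMM), which makes most genes level on average. The TMM factor was highest in Whole Egg-2 (1.72) and lowest in Control-4 (0.682), and between 0.776 and 1.18 in the others. A higher factor lowers the CPM of every gene in a fish, so the rank of a fish depends on it too. Whole Egg-2 and Control-2 stood apart in genes of other organs. The summed level of 12 ovary genes was 459.4 CPM in Whole Egg-2 and between 3.59 and 53.3 CPM in the other 7 fish. In Whole Egg-2 the 10 liver genes summed to 8460 CPM, against 20250 to 31870 CPM in the other 7 fish. Before the TMM factors this liver sum was also lowest in Whole Egg-2, by a smaller gap. Control-2 had the highest sum of 11 intestine genes (444.5 CPM, against 77.1 to 241.2 CPM in the others), and fabp6, an intestinal bile acid carrier, was at 40.4 CPM there and at or below 0.060 CPM elsewhere. The sum of 10 exocrine pancreas genes ranged from 133.9 to 1237 CPM in Whole Egg and from 305.8 to 1670 CPM in Control. The liver marker fabp10a, 1 of the 10 liver genes, was between 650 and 1721 CPM in all 8 fish. It was lowest in Control-1 and at 750 CPM in Whole Egg-2, so it did not follow the gap in the liver sum. The part of these marker differences in the results below was not tested. Fold changes that lean on Whole Egg-2 are given with and without it.

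The gene for the pathway's desaturase, fads2, was the member with the most reads. In zebrafish its enzyme places double bonds at both of the positions the pathway needs. Its level was 877, 402.5, 999 and 1501 CPM in Whole Egg-1 to Whole Egg-4, against 1551, 1341, 728 and 2421 CPM in Control-1 to Control-4. The diets overlapped, with the lowest value in Whole Egg-2 and the highest in Control-4. That Whole Egg-2 lay below Control-3 rests on the TMM factors. Before these, Whole Egg-2 had 13839 reads of fads2 among 20031071 on genes, and Control-3 had 23011 among 35871236. The mean was 945 ± 451 CPM in Whole Egg and 1510 ± 700.2 CPM in Control (SD, n = 4 fish each). The log2 fold change of Whole Egg over Control was −0.68 ± 0.46 (SE) with edgeR's quasi-likelihood test (unadjusted p = 0.176, adjusted p = 0.810), which did not pass the threshold of an adjusted p under 0.1. Without Whole Egg-2 it was −0.42 ± 0.38 (edgeR, adjusted p = 0.999), and without Control-4 it was −0.35 (edgeR, adjusted p = 0.983). Leaving out each fish in turn gave −0.997 to −0.35. In bulk liver, fewer liver cells and less RNA per liver cell cannot be told apart.

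The gene elovl2 encodes the elongase that acts late in the pathway, on the fatty acids from which DHA is made. It had 55.3, 8.29, 66.15 and 53.1 CPM in Whole Egg-1 to Whole Egg-4 and 74.9, 115.4, 27.05 and 112.7 CPM in Control-1 to Control-4. The lowest fish was again Whole Egg-2, and Control-3 lay below the other 3 Whole Egg fish. Across the 8 fish the highest level was 13.9 times the lowest, compared with 6.01 times for fads2 and 3.20 times for elovl5. Without Whole Egg-2, the lowest fish in CPM in all 3 genes, these ratios were 4.27 for elovl2, 3.33 for fads2 and 2.495 for elovl5. The mean was 45.7 ± 25.6 CPM in Whole Egg and 82.5 ± 41.3 CPM in Control (SD, n = 4 each). Between the diets the log2 fold change was −0.85 ± 0.62 (edgeR, adjusted p = 0.813) and, without Whole Egg-2, −0.50 ± 0.44 (edgeR, adjusted p = 0.999).

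The gene elovl5 encodes the elongase of the earlier steps, which acts on the shorter PUFA. Its level was 52.5, 20.8, 26.7 and 39.97 CPM in Whole Egg-1 to Whole Egg-4, against 61.25, 66.7, 62.3 and 44.3 CPM in Control-1 to Control-4. In CPM Whole Egg-1 lay above Control-4, the lowest Control fish, and the other 3 Whole Egg fish lay below every Control fish. That these 3 fish lay below Control-4 rests on the TMM factors, as does the lowest rank of Whole Egg-2. Before these factors Control-4 was the lowest fish, with 645 reads of elovl5 among 21346815 on genes. Whole Egg-2 had 716 among 20031071, Whole Egg-3 had 657 among 20800472 and Whole Egg-4 had 664 among 16916307. The mean was 35.0 ± 14.1 CPM in Whole Egg and 58.6 ± 9.84 CPM in Control (SD, n = 4 each). Of the 7 members tested, elovl5 had the smallest edgeR p (unadjusted p = 0.0391), with a log2 fold change of −0.74 ± 0.31, and it did not pass after adjustment over all genes (adjusted p = 0.810). The study had picked elovl5 from most of these fish, so this p is not independent evidence. Without Whole Egg-2 the fold change was −0.56 ± 0.27 (edgeR, unadjusted p = 0.0677, adjusted p = 0.999).

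The gene elovl8b belongs to a branch of the family known from fish, and in zebrafish its enzyme is reported to lengthen PUFA. It had 3.49, 2.56, 5.05 and 2.77 CPM in Whole Egg-1 to Whole Egg-4 and 5.32, 4.93, 3.57 and 7.49 CPM in Control-1 to Control-4. The diets overlapped, since Whole Egg-3 lay above Control-2 and Control-3. Its log2 fold change was −0.61 ± 0.31 (edgeR, unadjusted p = 0.0794, adjusted p = 0.810) and −0.47 ± 0.31 without Whole Egg-2. As in fads2, the lowest fish in CPM was Whole Egg-2 and the highest was Control-4. Both ranks in elovl8b rest on the TMM factors. Before these, Whole Egg-2 had 88 reads of elovl8b among 20031071 on genes, against 71 among 21934962 in Whole Egg-1. Control-4 had 109 among 21346815, against 124 among 20800472 in Whole Egg-3.

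**Figure D1:**
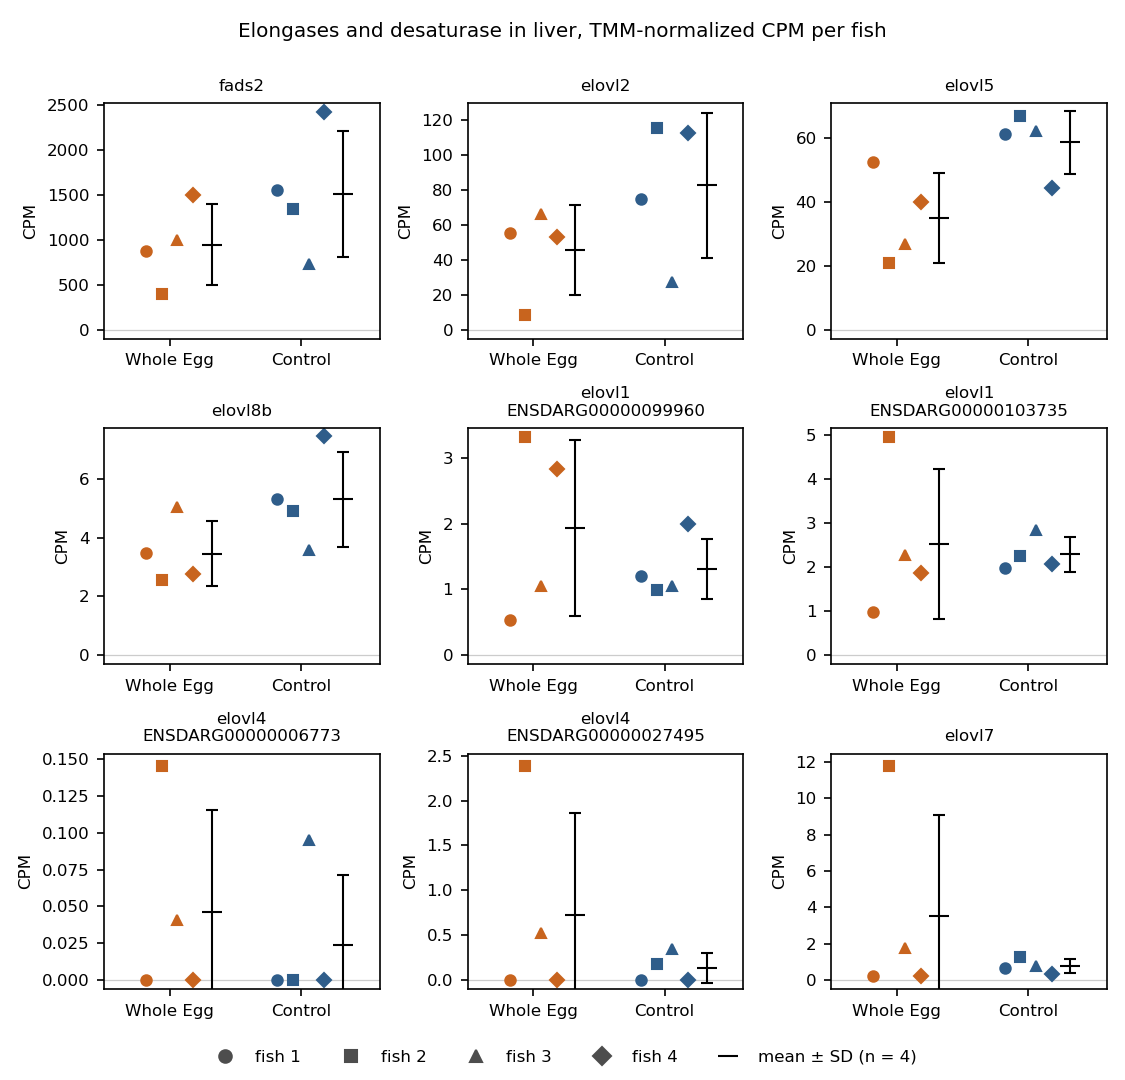
Level of each of the 9 genes in each liver, as TMM-normalized CPM (linear axes that differ between genes), with 4 Whole Egg fish left and 4 Control fish right. The marker shape gives the fish number, a black bar the mean ± SD (n = 4), and bars that run below 0 are cut off at the lower edge of the panel. Whole Egg-2 (orange square) was lowest in the 4 genes fads2, elovl2, elovl5 and elovl8b and highest in the other 5. Its lowest rank in fads2, elovl5 and elovl8b rests on the TMM factors.

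The remaining elongases were counted at low numbers of reads, and Whole Egg-2 was the highest fish in each. The enzyme ELOVL1 makes saturated and monounsaturated fatty acids of very long chain in mammals. The elovl1 gene ENSDARG00000099960 had 0.540, 3.32, 1.06 and 2.83 CPM in Whole Egg-1 to Whole Egg-4 and 1.21, 0.994, 1.04 and 1.99 CPM in Control-1 to Control-4. The Whole Egg fish lay on both sides of the Control fish, and the log2 fold change was 0.58 ± 0.55 (edgeR, adjusted p = 0.839), or 0.16 ± 0.53 without Whole Egg-2. The elovl1 gene ENSDARG00000103735 had 0.982, 4.95, 2.28 and 1.87 CPM in Whole Egg-1 to Whole Egg-4 and 1.98, 2.26, 2.85 and 2.06 CPM in Control-1 to Control-4. Its log2 fold change was 0.15 ± 0.45 (edgeR, adjusted p = 0.939) and turned to −0.42 ± 0.33 without Whole Egg-2 (edgeR, adjusted p = 0.999).

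ELOVL7 in mammals lengthens mostly saturated and monounsaturated fatty acids. The elovl7 gene had 0.246, 11.8, 1.75 and 0.241 CPM in Whole Egg-1 to Whole Egg-4, and 0.659, 1.27, 0.791 and 0.343 CPM in Control-1 to Control-4. A single fish, Whole Egg-2, lay far above the next highest. With that liver the log2 fold change was 2.19 ± 1.13 (edgeR, unadjusted p = 0.0827, adjusted p = 0.810), and without it 0.00 ± 0.69 (edgeR, adjusted p = 0.9997).

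ELOVL4 makes the very long PUFA of retina and sperm in mammals. The elovl4 gene ENSDARG00000027495 had 0, 82, 13 and 0 reads in Whole Egg-1 to Whole Egg-4 and 0, 4, 11 and 0 reads in Control-1 to Control-4, or 2.38 CPM in Whole Egg-2 and at most 0.529 CPM in the other fish. The elovl4 gene ENSDARG00000006773 had 9 reads in all 8 fish together, 5 of them in Whole Egg-2. A count of 0 in a library allows a level of up to 0.0873 CPM (Whole Egg-2) to 0.206 CPM (Control-4), taken as 3 reads and for counting error only. Neither gene passed the filter on low counts, and a diet difference was not detectable at this depth. The reads of ENSDARG00000027495 also depended on strand, with 466 reads over the 8 fish when both strands were counted and 110 on the strand used, so most reads at this place came from the opposite strand. The 9 genes of nerve and retina summed to between 0.163 and 1.098 CPM.

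Of the 9 members, 7 passed the filter on low counts and were tested in the 8 fish among 13379 genes. At an adjusted p under 0.1, 0 members passed, as did 0.0% of all genes tested (edgeR). DESeq2 also called 0 of the 13379 genes, with 861 genes at an unadjusted p under 0.05, compared with 522 by edgeR. The members among these 861 were elovl5 and elovl7, both at a DESeq2 adjusted p of 0.704. At an unadjusted p under 0.05, edgeR found 1 of the 7 members lower in Whole Egg (elovl5), beside 1.36% of all genes, and 0 of 7 higher in Whole Egg, beside 2.54% of all genes. The study had picked elovl5 from these same fish without Whole Egg-1 and Control-4. Its place among the members here is thus a description and not independent evidence. With upper quartile normalization the numbers of all genes at that p were 189 higher and 282 lower in Whole Egg, against 340 higher and 182 lower with TMM. The Whole Egg and Control fish did not overlap in 0 of the 7 members, beside 2.16% of all genes. The log2 fold change was below 0 in 4 of the 7 members, and in 45.8% of all genes, whose median was 0.04. With 7 members, 4 below 0 is not read as a departure from that share. These 4 were fads2, elovl2, elovl5 and elovl8b, which had Whole Egg-2 as their lowest fish in TMM-normalized CPM. They stayed below 0 without Whole Egg-2 (−0.42, −0.50, −0.56 and −0.47, in that order).

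In the 6 fish without Whole Egg-2 and Control-2, 0 of the 7 members tested passed (edgeR, adjusted p under 0.1), beside 0.0% of 13267 genes, of which 281 were at an unadjusted p under 0.05. DESeq2 called 2 of these genes, with no member among them. The members' log2 fold changes were −0.47 ± 0.43 for fads2, −0.29 ± 0.46 for elovl2, −0.49 ± 0.30 for elovl5 and −0.52 ± 0.35 for elovl8b, the same sign as in the 8 fish. For elovl7 the value was 0.32 ± 0.81, for the elovl1 gene ENSDARG00000099960 it was 0.06 ± 0.60, and for ENSDARG00000103735 it was −0.43 ± 0.37. Single fish weighed on these values. Without Control-4 as well, fads2 was at −0.028, elovl8b at −0.22 and elovl2 turned to 0.19. Without Whole Egg-3 as well, elovl5 was at −0.27. These fits share 6 fish with the fit of all 8 and are not independent of it. Each of the 7 values lay within 2 standard errors of 0.

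In the 6 fish without Whole Egg-1 and Control-4, genes needed at least 30 reads in every fish, and 5 members passed. With a limit of 0.1 on the adjusted p and of 0.8 on the size of the log2 fold change, edgeR called 0 of the 5 members, beside 0.0% of 8195 genes, with 496 genes at an unadjusted p under 0.05. DESeq2 called 60 genes, or 0.732% of those tested, and elovl5 was the 1 member among them. The study picked elovl5 from these fish, so what follows is a description and not independent evidence. Its level was 20.8, 26.7 and 39.97 CPM in Whole Egg-2 to Whole Egg-4, against 61.25, 66.7 and 62.3 CPM in Control-1 to Control-3. All 3 Whole Egg fish lay below all 3 Control fish, as in 6.39% of the 8195 genes. The log2 fold change was −1.09 ± 0.28 with edgeR (adjusted p = 0.798) and −1.097 ± 0.27 with DESeq2 (adjusted p = 0.0192). With the fish number as a block, DESeq2 gave −1.37 ± 0.51 (adjusted p = 0.348) and did not call it. In this set Control-1 and Whole Egg-4 have no fish of the same number. The blocked fit thus takes its diet difference from Whole Egg-2, Whole Egg-3, Control-2 and Control-3 only. It cannot be set against the fit of all 6 fish. Whole Egg-1 and Control-4, the fish left out of this set, were the highest Whole Egg fish and the lowest Control fish in elovl5. Without Whole Egg-2 as well, the edgeR value was −0.96 ± 0.26 (adjusted p = 0.605).

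The other 4 members in this set did not pass with edgeR. For them the estimates were −0.31 ± 0.48 for fads2 (edgeR, adjusted p = 0.883), −0.77 ± 0.73 for elovl2, −0.36 ± 0.32 for elovl8b and 0.47 ± 0.43 for the elovl1 gene ENSDARG00000103735. Leaving out Whole Egg-2 as well turned fads2 to 0.02 ± 0.37 and ENSDARG00000103735 to −0.22 ± 0.25, and brought elovl2 to −0.31 ± 0.54. Without Control-2 as well, elovl2 was at −0.26. Leaving out 1 further fish gave −0.71 to −0.22 for elovl8b. The fold change of elovl5 was nearest to 0 in the set without Whole Egg-2 and Control-2 and farthest from 0 in the set without Whole Egg-1 and Control-4, and the sets were not tested against each other, since they share fish.

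**Figure D2:**
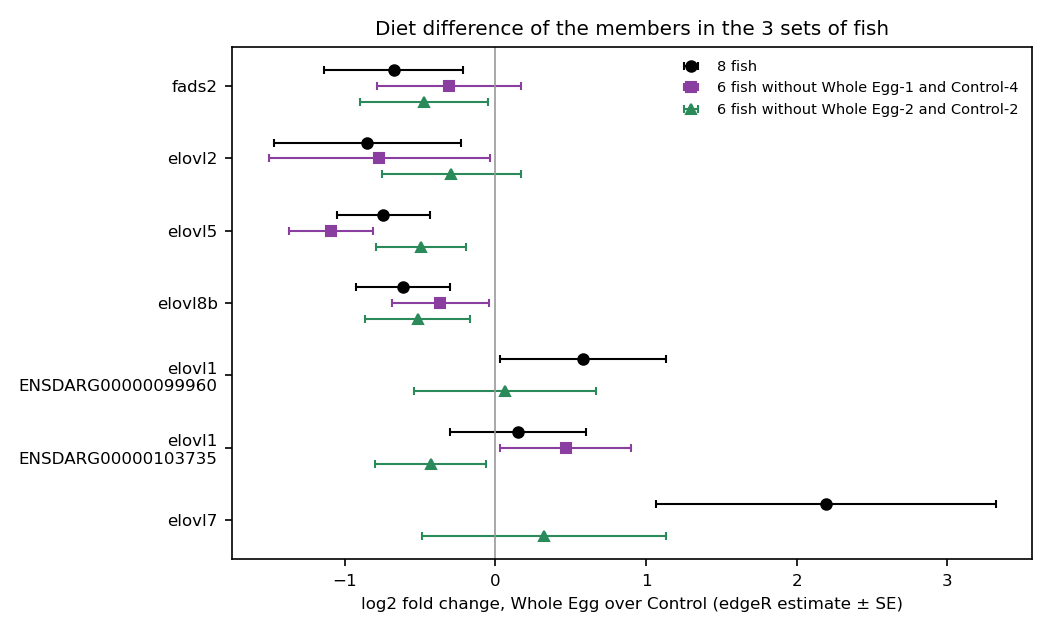
Log2 fold change of Whole Egg over Control (edgeR estimate, bars are ± SE) of the 7 members tested, in all 8 fish (black circles), in 6 fish without Whole Egg-1 and Control-4 (purple squares) and in 6 fish without Whole Egg-2 and Control-2 (green triangles). The points of fads2, elovl2, elovl5 and elovl8b lie left of 0 in each set, while elovl7 is at 2.19 with Whole Egg-2 in the set and at 0.32 in the set without Whole Egg-2 and Control-2.

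Because the liver genes were low in Whole Egg-2, fads2, elovl2, elovl5 and elovl8b were also set against the mean log2 level of the 10 liver genes in the same fish. On this scale fads2 was at −0.07, 0.10, 0.33 and 0.43 in Whole Egg-1 to Whole Egg-4 and at 0.86, 0.50, −0.39 and 1.22 in Control-1 to Control-4, so Whole Egg-2 was no longer the lowest fish. For elovl2 the values were −4.06, −5.50, −3.58 and −4.39 in Whole Egg and −3.51, −3.03, −5.14 and −3.20 in Control, and Whole Egg-2 remained the lowest fish, with Control-3 next. For elovl5 they were −4.14, −4.17, −4.89 and −4.80 in Whole Egg and −3.80, −3.83, −3.94 and −4.55 in Control. Whole Egg-3 was the lowest in elovl5. Its liver sum of 20250 CPM was the second lowest of the 8 fish, after Whole Egg-2 and close to the 20450 CPM of Control-3. That rank rests on the TMM factors, before which Whole Egg-3 lay above Control-1, Control-3 and Control-4 in this sum. When the edgeR fit of the 8 fish was scaled to these liver genes, the median log2 fold change of all genes was 0.48, against 0.04 with TMM. On that scale fads2 was at −0.45 ± 0.31, elovl2 at −0.70 ± 0.49, elovl5 at −0.46 ± 0.30 and elovl8b at −0.20 ± 0.45, all below the median gene, and 0 genes were called. In the 6 fish without Whole Egg-1 and Control-4, elovl8b turned to 0.04 ± 0.53 on this scale, where the median of all genes was 0.49.

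**Figure D3:**
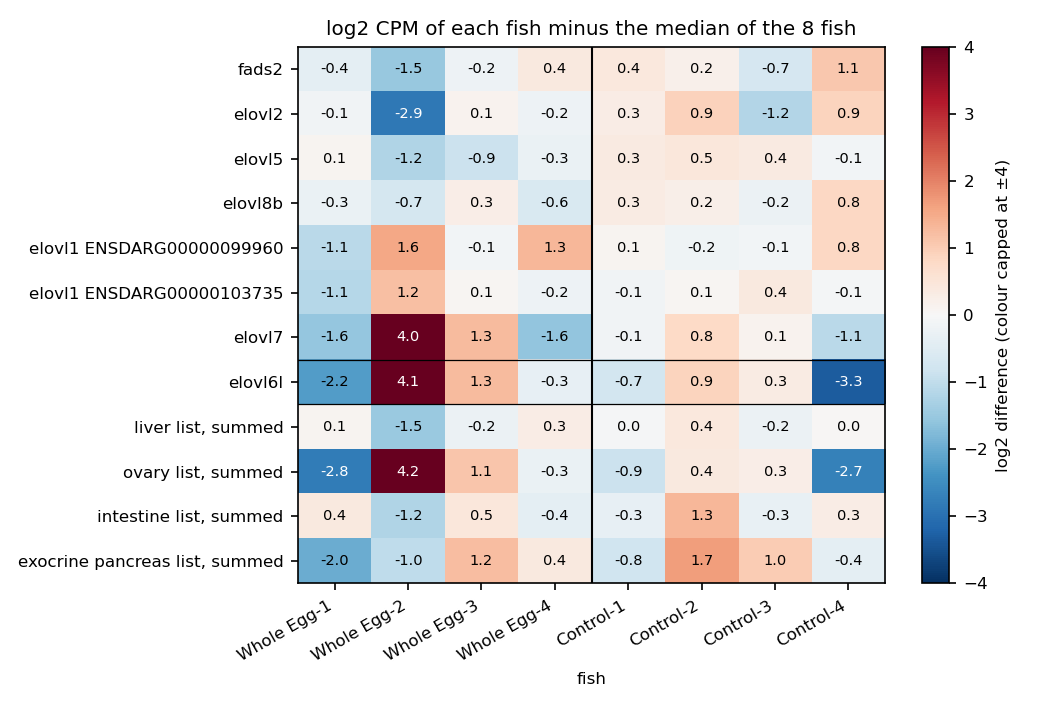
Log2 CPM of each fish minus the median of the 8 fish, for the 7 members tested (top block), elovl6l (middle) and the summed marker lists (bottom block), with Whole Egg fish left and Control fish right of the black line. Whole Egg-2 is low in the 4 genes from fads2 to elovl8b and in the liver list, and high in elovl7, elovl6l and the ovary list.

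Whether members rose and fell together from fish to fish was examined over all 21 pairs of the 7 members tested. At a Benjamini-Hochberg adjusted p under 0.05, 0 of the 21 pairs passed. The closest pair was fads2 and elovl2, with a Pearson's r of 0.895 over 8 fish (exact permutation p = 0.00263, adjusted p = 0.0552) and a Spearman's rho of 0.738 (exact permutation p = 0.0458, adjusted p = 0.291). Without Whole Egg-2 r was 0.762 (exact permutation p = 0.0456, adjusted p = 0.588), and without Whole Egg-2 and Control-4, the fish farthest from the median of fads2, it was 0.682. Within diets, as deviations from the diet means, r was 0.869. The pair passed when Whole Egg-4 was left out (r = 0.916, exact permutation, adjusted p = 0.0333) and when Control-2 was left out (r = 0.917, exact permutation, adjusted p = 0.0292). Control-3 was low in both genes, and Control-4 was high in both.

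The correlations of both genes with elovl5 were weaker and rested on Whole Egg-2. Over the 8 fish r was 0.484 for fads2 and elovl5 (exact permutation p = 0.231, adjusted p = 0.346; rho 0.190, exact permutation p = 0.665) and 0.583 for elovl2 and elovl5 (exact permutation p = 0.117, adjusted p = 0.245; rho 0.476, exact permutation p = 0.243). Without Whole Egg-2 they were −0.07 and −0.04. For elovl2 and elovl8b r was 0.770 (exact permutation p = 0.0195, adjusted p = 0.137; rho 0.786, exact permutation p = 0.0279) and 0.706 without Whole Egg-2. The pair of elovl7 and the elovl1 gene ENSDARG00000103735 had an r of 0.849 (exact permutation p = 0.00866, adjusted p = 0.0909; rho 0.881, exact permutation p = 0.00724) and 0.627 without Whole Egg-2.

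**Figure D4:**
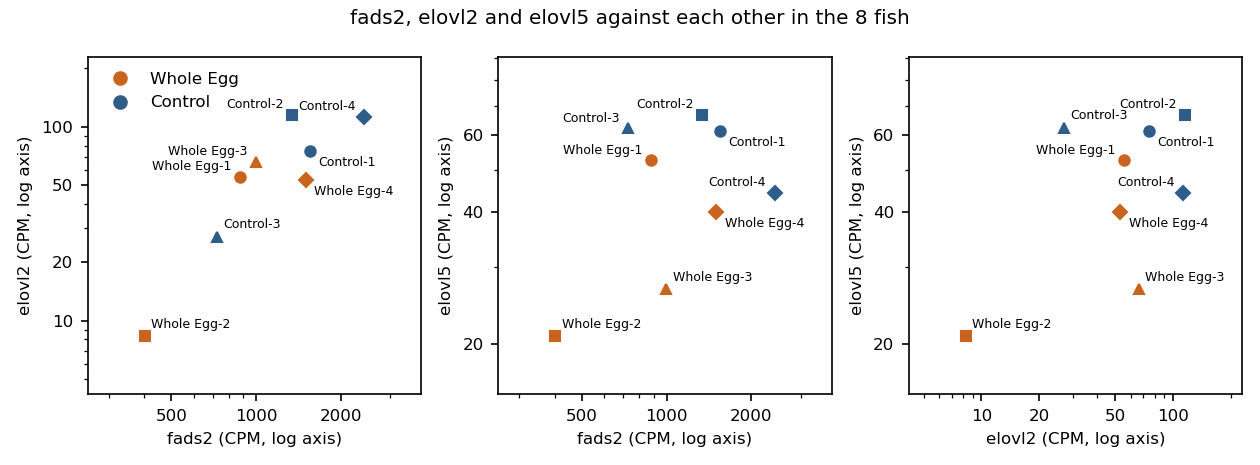
Level of fads2, elovl2 and elovl5 against each other in the 8 fish (TMM-normalized CPM, log axes), with Whole Egg fish in orange and Control fish in blue. In the left panel the fish run from Whole Egg-2 and Control-3 (both genes low) to Control-4 (both high), whereas in the other panels elovl5 shows no such order once Whole Egg-2 is set aside.

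Across all genes, many tracked fads2 and elovl2 as closely as these tracked each other. Among 13372 other genes, 89 (0.666%) had an r with fads2 of at least the 0.895 of elovl2, and 80 (0.598%) reached that value with elovl2. The genes nearest to fads2 were ZFAND3 (r = 0.980), ERO1B (r = 0.976) and GCN1 (r = 0.976), as the gene-name table calls them. Nearest to elovl2 were apoa1a (r = 0.982), which encodes an apolipoprotein of high-density lipoprotein, STARD4 (r = 0.978), a carrier of cholesterol, and PCMT1 (r = 0.976). Nearest to elovl5 were si:ch1073-440b2.1 (r = 0.966), zgc:110843 (r = 0.963) and si:dkey-210j14.4 (r = 0.961). These are the highest of many values over 8 fish and are given as a description.

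Of 5 further elovl symbols, 3 were found. The gene elovl6l, related to the elongase of saturated fatty acids elovl6, had 0.295, 24.2, 3.30 and 1.08 CPM in Whole Egg-1 to Whole Egg-4 and 0.823, 2.53, 1.74 and 0.137 CPM in Control-1 to Control-4. Like elovl7, it was highest in Whole Egg-2, and its log2 fold change was 2.44 ± 1.22 in the 8 fish (edgeR, adjusted p = 0.810), 0.25 ± 0.88 without Whole Egg-2, and 0.73 ± 0.94 without Whole Egg-2 and Control-2. The gene elovl6 had 2.41, 0, 0.122 and 1.38 CPM in Whole Egg-1 to Whole Egg-4 and 0.384, 12.9, 0.569 and 0.824 CPM in Control-1 to Control-4. It was high in 1 fish, Control-2, and its log2 fold change was −1.95 ± 1.45 in the 8 fish (edgeR, adjusted p = 0.818). It was −1.53 ± 1.35 without Whole Egg-2, and 1.14 ± 0.87 without Whole Egg-2 and Control-2. The gene elovl8a, the other elovl8 gene, lay between 0 and 0.977 CPM in Whole Egg and between 0.271 and 1.20 CPM in Control and did not pass the filter in the 8 fish.

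After the elongase, 3 further enzymes complete each round of elongation. Of the 10 genes listed for these steps 6 were tested, and 0 passed after adjustment. Among them hsd17b12b, a ketoacyl-CoA reductase, had 24.4, 12.7, 18.6 and 11.3 CPM in Whole Egg-1 to Whole Egg-4 and 28.4, 41.5, 20.7 and 24.5 CPM in Control-1 to Control-4. In CPM only Whole Egg-1 lay above the lowest Control fish, which rests on the TMM factors (1.72 in Whole Egg-2 and 0.682 in Control-4). Before these, Whole Egg-2 and Whole Egg-3 also lay above Control-3 and Control-4. The log2 fold change of hsd17b12b was −0.78 ± 0.32 (edgeR, unadjusted p = 0.0362, adjusted p = 0.810). It was the 1 gene of the list at an unadjusted p under 0.05. Without Whole Egg-2 the fold change was −0.66 ± 0.34. The dehydratase gene hacd2 had 51.3 ± 15.9 CPM in Whole Egg and 55.2 ± 6.25 CPM in Control (SD, n = 4 each) and a log2 fold change of −0.11 ± 0.27, which turned to 0.090 ± 0.18 without Whole Egg-2. The median of the list was −0.21, with 4 of 6 below 0, and −0.01 without Whole Egg-2. Scaled to the 10 liver genes it turned to 0.11, with 2 of 6 below 0, where the median of all genes was 0.48.

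Of 11 genes for other desaturases and for the cytochrome b5 electron supply, 10 were tested and 0 passed. The stearoyl-CoA desaturase gene scd, which makes monounsaturated fatty acids, varied most, with 285.5, 4.80, 16.6 and 0.542 CPM in Whole Egg-1 to Whole Egg-4 and 3.24, 491, 1.42 and 42.9 CPM in Control-1 to Control-4. Whole Egg-1 and Control-2 held most of its reads, and the log2 fold change was −0.81 ± 1.90 (edgeR, adjusted p = 0.922), against 2.70 ± 1.92 without Whole Egg-2 and Control-2. The gene cyb5a, the electron carrier cytochrome b5, had 54.3 ± 16.3 CPM in Whole Egg and 68.1 ± 13.5 CPM in Control (SD, n = 4 each), a log2 fold change of −0.33 ± 0.28, or −0.12 ± 0.20 without Whole Egg-2. At an unadjusted p under 0.05 were cyb5r2 (−1.07 ± 0.46, adjusted p = 0.810, edgeR), a cytochrome b5 reductase, and degs2 (1.82 ± 0.80, adjusted p = 0.810, edgeR), a sphingolipid desaturase. In degs2 Whole Egg-2 had 8.26 CPM and the other 7 fish at most 1.38 CPM, and without Whole Egg-2 the log2 fold change was 0.34 ± 0.45 (edgeR, adjusted p = 0.999). That of cyb5r2 was −0.87 ± 0.46 without Whole Egg-2.

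Long-chain acyl-CoA synthetases activate fatty acids, and acyltransferases place PUFA into phospholipids. Of the 8 synthetase genes found 5 were tested, and of 11 genes for acyltransferases and DHA transport 7 were tested, with 0 passing in either list. The most counted, acsl4a, a synthetase that prefers arachidonic acid in mammals, had 90.2 ± 68.0 CPM in Whole Egg and 80.9 ± 38.6 CPM in Control (SD, n = 4 each). The gene acsl1b was at 155.7 CPM in Whole Egg-1 and between 7.52 and 18.5 CPM in the other Whole Egg fish, against 10.03 to 102.1 CPM in Control. The list's median log2 fold change was 0.17 over 5 genes in the 8 fish. It was −0.78 over 4 genes in the 6 fish without Whole Egg-1 and Control-4, where the filter on counts was stricter. Of the genes tested in both, acsl4a went from 0.16 to −0.70 and acsl1b from 0.17 to −2.07. Of the acyltransferase list, mfsd2a, the carrier of DHA-bearing lysophosphatidylcholine, had 97.5 ± 51.7 CPM in Whole Egg and 89.5 ± 47.0 CPM in Control, and mboat2a 30.6 ± 29.1 CPM in Whole Egg and 29.2 ± 18.8 CPM in Control (SD, n = 4 each). The gene lpcat4 had a log2 fold change of 2.32 ± 0.97 (edgeR, unadjusted p = 0.0404, adjusted p = 0.810), with 16.4 CPM in Whole Egg-2 and at most 2.20 CPM in the other 7 fish. Without Whole Egg-2 it was 0.47 ± 0.58 (edgeR, adjusted p = 0.999).

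The last step of DHA synthesis is a round of beta-oxidation in peroxisomes. All 14 genes listed for it were tested, and 0 passed. In 13 of the 14 the estimate was below 0, with a median of −0.33, where 45.8% of all genes were below 0. Without Whole Egg-2, 10 of 14 were below 0 with a median of −0.22, and in the 6 fish without Whole Egg-2 and Control-2, 9 of 14 with the same median of −0.22. In the 6 fish without Whole Egg-1 and Control-4, all 13 of the genes tested there were below 0, with a median of −0.40, where 45.0% of all genes were below 0. With Whole Egg-1 alone left out, 13 of 14 were below 0, with a median of −0.50. Scaled to the 10 liver genes, 5 of 14 were below 0, with a median of 0.04 where the median of all genes was 0.48. The most counted were scp2a, a sterol carrier and thiolase, with 229.9 ± 98.2 CPM in Whole Egg and 259.1 ± 28.7 CPM in Control, and abcd3, a peroxisomal transporter, with 81.55 ± 32.75 CPM in Whole Egg and 96.6 ± 20.4 CPM in Control (SD, n = 4 each). The bifunctional enzyme hsd17b4 had 33.45, 25.3, 34.4 and 38.9 CPM in Whole Egg-1 to Whole Egg-4 and 50.7, 47.2, 38.5 and 46.7 CPM in Control-1 to Control-4. In CPM the diets overlapped only in Whole Egg-4 and Control-3, which rests on the TMM factors (1.72 in Whole Egg-2 and 0.682 in Control-4). Before these, Whole Egg-2 lay above every Control fish but Control-2. The log2 fold change of hsd17b4 was −0.47 ± 0.21 (edgeR, unadjusted p = 0.0490, adjusted p = 0.810). Without Whole Egg-2, the lowest fish in CPM, it was −0.36 ± 0.18 (edgeR, unadjusted p = 0.0755, adjusted p = 0.999).

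Of 25 regulators of PUFA synthesis listed, 23 were tested and 0 passed. Their median was −0.14, with 16 of 23 below 0, beside 45.8% of all genes. Without Whole Egg-2 the median was −0.07, with 15 of 23 below 0, where the median of all genes was 0.01. Scaled to the 10 liver genes the median turned to 0.22, with 5 of 23 below 0, where the median of all genes was 0.48. The retinoid X receptor gene rxraa, whose product pairs with the receptors that sense fatty acids and sterols, had 4.13, 5.29, 3.46 and 6.44 CPM in Whole Egg-1 to Whole Egg-4 and 9.11, 7.503, 6.80 and 6.94 CPM in Control-1 to Control-4. In CPM every Whole Egg fish lay below every Control fish, and the diets did not overlap in 2.16% of all genes, in either direction. The separation of rxraa rests on the TMM factors, highest in Whole Egg-2 (1.72) and lowest in Control-4 (0.682). Before these, Whole Egg-2 lay above every Control fish. The log2 fold change was −0.65 ± 0.25 (edgeR, unadjusted p = 0.0264, adjusted p = 0.810), and −0.71 ± 0.25 without Whole Egg-2. The gene insig1, which holds the sterol regulatory proteins in the endoplasmic reticulum, was at 302.6 CPM in Whole Egg-3 and between 9.57 and 66.8 CPM in the other Whole Egg fish, against 17.6 to 103.9 CPM in Control. The liver regulator hnf4a had 75.5 ± 36.75 CPM in Whole Egg and 78.1 ± 17.3 CPM in Control (SD, n = 4 each), with a log2 fold change of −0.05 ± 0.37, which turned to 0.20 ± 0.28 without Whole Egg-2. The gene srebf1, for the factor that drives fads2 and elovl genes in mammals, had a log2 fold change of 0.02 ± 0.49 (edgeR, adjusted p = 0.993). In the same list srebf2 was at −0.68 ± 0.45 and mlxipl at −0.54 ± 0.44 (edgeR, adjusted p = 0.810 and 0.825). These genes were named after their values were seen.

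**Figure D5:**
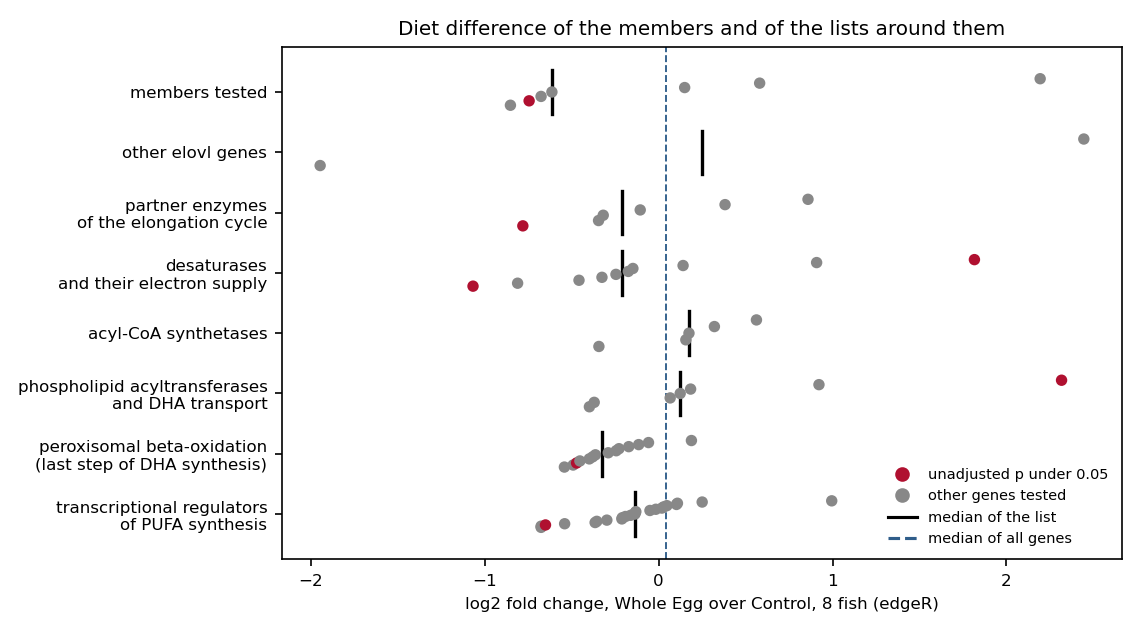
Log2 fold change of Whole Egg over Control in the 8 fish (edgeR) of each gene tested, for the members and the 7 lists around them, with red for an unadjusted p under 0.05, a black bar at each list's median and a dashed line at the median of all genes (0.04). The peroxisomal genes lie mostly left of 0 (13 of 14, median −0.33), and no gene passed after adjustment. Scaled to the liver genes, which is not drawn, 5 of 14 were below 0. Their median was then 0.04, where the median of all genes was 0.48.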

How the data were processed

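Whole-liver RNA was depleted of ribosomal RNA and sequenced from strand-specific, single-end libraries. The raw counts per gene that the authors deposited came from STAR 2.5.2b on GRCz11, after read filtering by Trimmomatic 0.36, and carry no normalization. Counts on the strand holding 97.9% of both were used. Between 33.95% and 37.93% of reads mapped to several places and are in no gene's count, so reads shared by near-identical paralogs are missing. Lengths were not at hand, so levels are not compared between genes. Symbols matched 29258 of 32520 identifiers.

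Diets were compared with edgeR 4.0.16 (R 4.3.3; quasi-likelihood test, TMM, Benjamini-Hochberg over all genes tested), with filterByExpr (minimum count 10) or at least 30 counts in every fish, and tested on simulated data first. Log2 CPM used a prior count of 2. Correlation p over all fish came from all 40320 pairings, two-sided. With a fish left out it came from all pairings of the remaining fish. No 2 libraries agreed within counting noise. P-values measure the spread between these fish. Alternatives were DESeq2 1.42.0, other normalizations and filters, both strands, a fish-number block, an adjusted p under 0.05 and leaving out each fish. DESeq2 with the block and scaling to 10 liver genes were chosen after seeing the data. Members and lists were chosen with earlier results of these data known. Named are all members, other elovl genes, the 2 most counted genes per list, up to 4 per list with the smallest unadjusted p under 0.05, and the 3 genes most like fads2, elovl2 and elovl5. Outside these rules, srebf1, srebf2 and mlxipl are named too. No sequences or coordinates are printed, and RT-PCR is not analysed here.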

Additional observations from a re-analysis of the deposited data

Results flagged for a closer look

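In some groups of 4 fish, 1 fish lay far from the others, with a gap to its neighbour, as a share of the group's range, past Dixon's critical value. This was so in 10 of 66 groups examined. Dixon's rate of about 1 in 20 by chance holds for independent, normally distributed values. These groups hold CPM on a linear scale from the same 8 fish, so 10 of 66 is not read as an excess. Of these, 5 were Whole Egg-2: elovl7 (11.8 CPM, next 1.75), elovl6l (24.2 CPM, next 3.30), degs2 (8.26 CPM, next 1.38), lpcat4 (16.4 CPM, next 2.20) and the summed ovary list (459.4 CPM, next 53.3). Whole Egg-1 stood apart in scd (285.5 CPM, next 16.6) and acsl1b (155.7 CPM, next 18.5), and Control-2 in scd (490.9 CPM, next 42.9) and elovl6 (12.9 CPM, next 0.824). Control-3 was the 1 Control fish with reads of the elovl4 gene ENSDARG00000006773 (0.0949 CPM, from 3 reads). A count of 0 allows more than that, up to 0.165 CPM in Control-1 and 0.206 CPM in Control-4. The cause of the flagged values was not tested.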

How the results depend on the processing

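The members' log2 fold changes kept their direction and stayed uncalled in 288 of 304 recomputations. The 304 include the setting of an adjusted p under 0.05, which repeats the main fit and could neither turn a sign nor add a call. They also include DESeq2 fits that gave a member no adjusted p, which could turn a sign but not add a call. Without Whole Egg-1 and Control-4, elovl5 became called with DESeq2 (−1.097). It was not called with DESeq2 and the block (−1.37, adjusted p = 0.348), a fit whose diet difference rests on fewer fish. Signs turned in 15. In the 8 fish ENSDARG00000103735 turned to −0.057 with the replicate block and −0.051 with DESeq2 and the block, and leaving out 1 fish gave −0.42 (without Whole Egg-2) to 0.40. Without Whole Egg-1 and Control-4, scaling to liver genes turned elovl8b to 0.045, and leaving out a further fish gave −0.73 to 0.023 for fads2 and −0.22 to 0.72 for ENSDARG00000103735, with the turned sign without Whole Egg-2 in both. Without Whole Egg-2 and Control-2, the block turned ENSDARG00000099960 to −0.14 and elovl7 to −0.023, and DESeq2 with the block both to −0.16. Leaving out a further fish there gave −0.67 to 0.19 for elovl2 (turned without Control-4), −0.79 to 0.45 for ENSDARG00000099960 (turned without Whole Egg-4, Control-1 or Control-3) and −1.31 to 0.73 for elovl7 (turned without Whole Egg-3). The r of fads2 and elovl5 ranged from −0.066 (without Whole Egg-2) to 0.650 (without Control-3), and that of elovl2 and elovl5 from −0.038 to 0.759 with the same fish left out.

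The numbers of genes called moved from 0 to 60 (DESeq2), 6 (block) and 104 (DESeq2 and block) without Whole Egg-1 and Control-4, to 20 in the 8 fish (DESeq2 and block), and to 2 (DESeq2) and 24 (DESeq2 and block) without Whole Egg-2 and Control-2. The block fits without Whole Egg-1 and Control-4 take the diet difference from Whole Egg-2, Whole Egg-3, Control-2 and Control-3 only. Their counts cannot be set against those of the other fits. Leaving out 1 fish gave 0 calls in each set. Between 0 and 3 pairs of members passed when 1 fish was left out (without Whole Egg-4 the 3 pairs among fads2, elovl2 and elovl8b, without Control-2 1 pair, fads2 and elovl2, and without Control-3 1 pair, elovl7 and ENSDARG00000103735). The cause of these shifts was not tested.

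The labels do not say what the fish numbers stand for, and the main fits do not take them as pairs. Same-numbered fish deviated together with r of 0.198, 0.352, 0.0788 and 0.4505. Whole Egg-1, Whole Egg-2 and Whole Egg-4 each correlated best with the Control fish of their own number, and Whole Egg-3 with Control-4 (0.0962). Fish of different numbers had r from −0.453 to 0.240. Whether same-numbered fish had something in common was not tested. With the number as a replicate block, edgeR called 0 genes in the 8 fish, with 754 at an unadjusted p below 0.05. There elovl7 was at 0.98 ± 0.80, against 2.19 ± 1.13 without the block. The gene fads2 was at −0.70 ± 0.36 with the block, against −0.68 ± 0.46 without it. With 3 or 4 fish per diet, the members' standard errors were 0.28 to 1.13 in the main edgeR fits. Modest diet changes in these genes could thus have gone unseen, and the power to see them was not calculated.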
